A study of Mus musculus with 90 samples.

Results

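Glucocorticoid action in the mouse liver was followed through 8 genes of the 24308 gene symbols in the RNA table, namely the receptors Nr3c1 and Nr3c2, the reactivating enzyme Hsd11b1 and its partner H6pd, the plasma carrier Serpina6, and the steroid-metabolizing enzymes Akr1c6, Akr1d1, and Srd5a1. The genes were chosen by symbol for what they do, and where a symbol had more than 1 RefSeq ID the ID with the highest mean RPKM was taken. They are NM_008173 (Nr3c1), NM_001083906 (Nr3c2), NM_001044751 (Hsd11b1), NM_001291004 (H6pd), NM_007618 (Serpina6), NM_030611 (Akr1c6), NM_145364 (Akr1d1), and NM_175283 (Srd5a1).

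RNA was sequenced from 54 mouse livers in 5 experiments on night-restricted feeding (NRF), in which food is given in the dark phase only, ZT0 is lights on and ZT12 is lights off. In the NRF experiment, livers were taken at ZT10 before food, at ZT14 without food (ZT14-unfed), and at ZT14 with food (ZT14-fed), with 2 libraries each after ribosomal depletion. The injected mice had 4 libraries in each of 5 groups at ZT14, namely unfed mice given PBS, and fed mice given PBS, the synthetic glucocorticoid dexamethasone (dex, 1 mg/kg), the insulin receptor antagonist S961, or dex and S961. In the L-GRKO experiment, all 8 mice carried floxed Nr3c1 alleles and were unfed at ZT14, and a virus (AAV) with a hepatocyte promoter (Tbg) delivered GFP to 4 and CRE to 4, so that the deletion is aimed at hepatocytes and other liver cells keep the gene. In the L-IRSdKO experiment, all 8 mice were fed at ZT14, had received dex at 1 mg/kg, and carried floxed Irs1 and Irs2, and 4 of them carried Alb-Cre in addition, which deletes both genes in hepatocytes. In the obesity experiment, mice on chow (lean) or a high-fat diet (obese) for 10 weeks were moved to NRF and taken unfed or fed at ZT14, with 3 libraries in each of the 4 groups. The mice of the NRF and injection experiments were males of 10 weeks, the L-IRSdKO mice and their controls were also 10 weeks of age, and the diets of the obesity experiment began in males of 5 weeks. The strain was C57BL/6N in the NRF, injection, and L-GRKO experiments, C57BL/6J in the L-IRSdKO experiment, and C57BL/6, with no substrain given, in the obesity experiment.

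Glucocorticoids act through Nr3c1, the glucocorticoid receptor (GR), a transcription factor held by chaperones in the cytosol until it binds hormone. Nr3c2, the mineralocorticoid receptor, binds the same hormones, and where Hsd11b2 is made the hormone is inactivated before it reaches it. In the liver the reverse reaction dominates, since Hsd11b1 sits in the endoplasmic reticulum (ER) and turns the inert keto steroid into active corticosterone with NADPH made by H6pd in the same compartment. Serpina6 encodes corticosteroid-binding globulin, the plasma protein that carries most of the circulating hormone and is secreted by hepatocytes. Akr1d1 and Srd5a1 reduce the A ring of the steroid in the beta and alpha configuration, and Akr1c6 is a hydroxysteroid dehydrogenase of the aldo-keto reductase family. Fasting, glucocorticoids, and insulin are known to act on hepatic genes through GR and through FOXO1, a forkhead factor that insulin keeps out of the nucleus.

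The libraries were usable for these genes with 1 reservation about scale. No 2 of the 54 libraries held identical values, and levels are in RPKM, reads scaled to the length of the transcript and to library size. As judged from the step that 1 read makes, the deepest library was 1.47 times as deep as the shallowest in the NRF experiment, 2.08 times in the injected mice, and 1.23 times in the L-IRSdKO experiment, and no ratio is given for the other 2 experiments. All 7 hepatocyte markers in the table were above 0.5 RPKM in every group. The 50 most abundant genes held 6.64 to 7.57% of the summed RPKM in the L-IRSdKO experiment and 33.4 to 46.8% elsewhere, and the hepatocyte markers summed to 2697 to 3310 RPKM there, in both genotypes, against 30210 to 75960 RPKM elsewhere, so levels were compared within experiments only. Irs1 was at a mean of 4.03 RPKM in the floxed livers and 0.199 RPKM in the L-IRSdKO livers, whereas Irs2 ranged over 0.614 to 5.61 RPKM in the floxed and 0.272 to 1.002 RPKM in the L-IRSdKO livers, so that the groups overlapped. In bulk libraries fewer cells of a type and less RNA per cell cannot be told apart, and the p-values below measure the spread between these mice.

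The stretches of liver chromatin that both GR and FOXO1 occupied nearest to the start sites come first, because the same genes are later compared with and without GR and with and without insulin signaling. For 6 of the genes, the GR peak of unfed livers that is nearest to the start site and overlapped by a FOXO1 peak is printed on the strand of the gene, 5′ to 3′, from the mm9 genome and without exonic bases. Capitals mark a match to a GR element (GNACA and TGTNC separated by 3 bases), a GR half-site (AGAACA), or a forkhead motif (TGTTTNC), searched on both strands.
Serpina6, chr12:104895423-104895600, just upstream of the first exon on the minus strand: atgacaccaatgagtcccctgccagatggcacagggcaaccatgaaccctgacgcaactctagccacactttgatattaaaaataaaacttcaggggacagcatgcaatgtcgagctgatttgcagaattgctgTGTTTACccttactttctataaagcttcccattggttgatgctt
Akr1d1, chr6:37480057-37480172, just upstream of the first exon on the plus strand: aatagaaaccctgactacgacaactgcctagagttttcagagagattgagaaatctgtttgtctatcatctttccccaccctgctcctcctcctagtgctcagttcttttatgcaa
Hsd11b1, chr1:195088515-195088694, intron, minus strand: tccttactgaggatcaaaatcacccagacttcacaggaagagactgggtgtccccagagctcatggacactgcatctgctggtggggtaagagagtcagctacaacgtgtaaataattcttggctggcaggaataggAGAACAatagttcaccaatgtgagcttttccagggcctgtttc
H6pd, chr4:149387187-149387366, upstream, minus strand: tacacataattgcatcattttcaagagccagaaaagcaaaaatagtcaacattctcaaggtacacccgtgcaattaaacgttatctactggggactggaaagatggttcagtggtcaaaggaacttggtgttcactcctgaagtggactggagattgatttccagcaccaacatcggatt
Akr1c6, chr13:4428502-4428681, upstream, plus strand: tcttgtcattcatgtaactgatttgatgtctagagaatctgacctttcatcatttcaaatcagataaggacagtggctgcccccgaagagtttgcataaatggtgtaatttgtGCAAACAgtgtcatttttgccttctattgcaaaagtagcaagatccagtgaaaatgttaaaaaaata
Srd5a1, chr13:69762839-69763018, upstream and within Nsun2, minus strand: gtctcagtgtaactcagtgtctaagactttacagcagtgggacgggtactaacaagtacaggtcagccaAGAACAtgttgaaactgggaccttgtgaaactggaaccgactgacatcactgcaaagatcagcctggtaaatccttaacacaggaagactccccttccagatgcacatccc
The Serpina6 stretch held a forkhead motif TGTTTAC and the Akr1c6 stretch a forkhead motif on the other strand, the Hsd11b1 and Srd5a1 stretches each held a GR half-site, and the letters of none of the 3 motifs were in the Akr1d1 and H6pd stretches. None of the 6 held a GR element, which occurred in 7.80% of all GR peaks. The half-site was in 27.7% of GR peaks and the forkhead motif in 25.9% of GR peaks and 37.6% of FOXO1 peaks, so that matches in single peaks are a description only.

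The levels of the 8 genes spanned more than 2 orders of magnitude per kilobase of transcript. Within the NRF experiment, the mean over the libraries was 518 RPKM for Akr1c6, 236 RPKM for Hsd11b1, 60.8 RPKM for Akr1d1, 53.9 RPKM for Serpina6, and 47.6 RPKM for H6pd. Srd5a1 was at 23.2 RPKM, Nr3c1 at 12.3 RPKM, and Nr3c2 at 2.297 RPKM. Akr1c6 was above Hsd11b1, and Nr3c2 below Nr3c1, in each of the 54 libraries. Serpina6 was below Akr1d1 in every NRF library, whereas its mean was the third highest in each other experiment. The order of H6pd and Akr1d1 differed between experiments. H6pd had the lower mean in the NRF experiment and in the obesity experiment, at 81.0 against 98.6 RPKM, and the higher mean in the injected mice, at 83.3 against 64.6 RPKM, with overlapping ranges in each. In the L-GRKO experiment all libraries had H6pd, at 73.8 to 108 RPKM, above Akr1d1, at 35.6 to 65.9 RPKM. The spread within groups also differed, with a median coefficient of variation of 19.7% for Srd5a1 and 17.6% for Nr3c2 against 7.60% for Hsd11b1 and 7.64% for Akr1d1. By contrast, the enzymes of hormone inactivation in the kidney and of hormone synthesis in the adrenal were low. Hsd11b2 reached at most 0.147 RPKM in any library and was listed at 0 in 17 of the 20 injected mice, and Cyp11b1 and Cyp11a1 reached at most 0.016 and 0.018 RPKM.

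**Figure D1:**
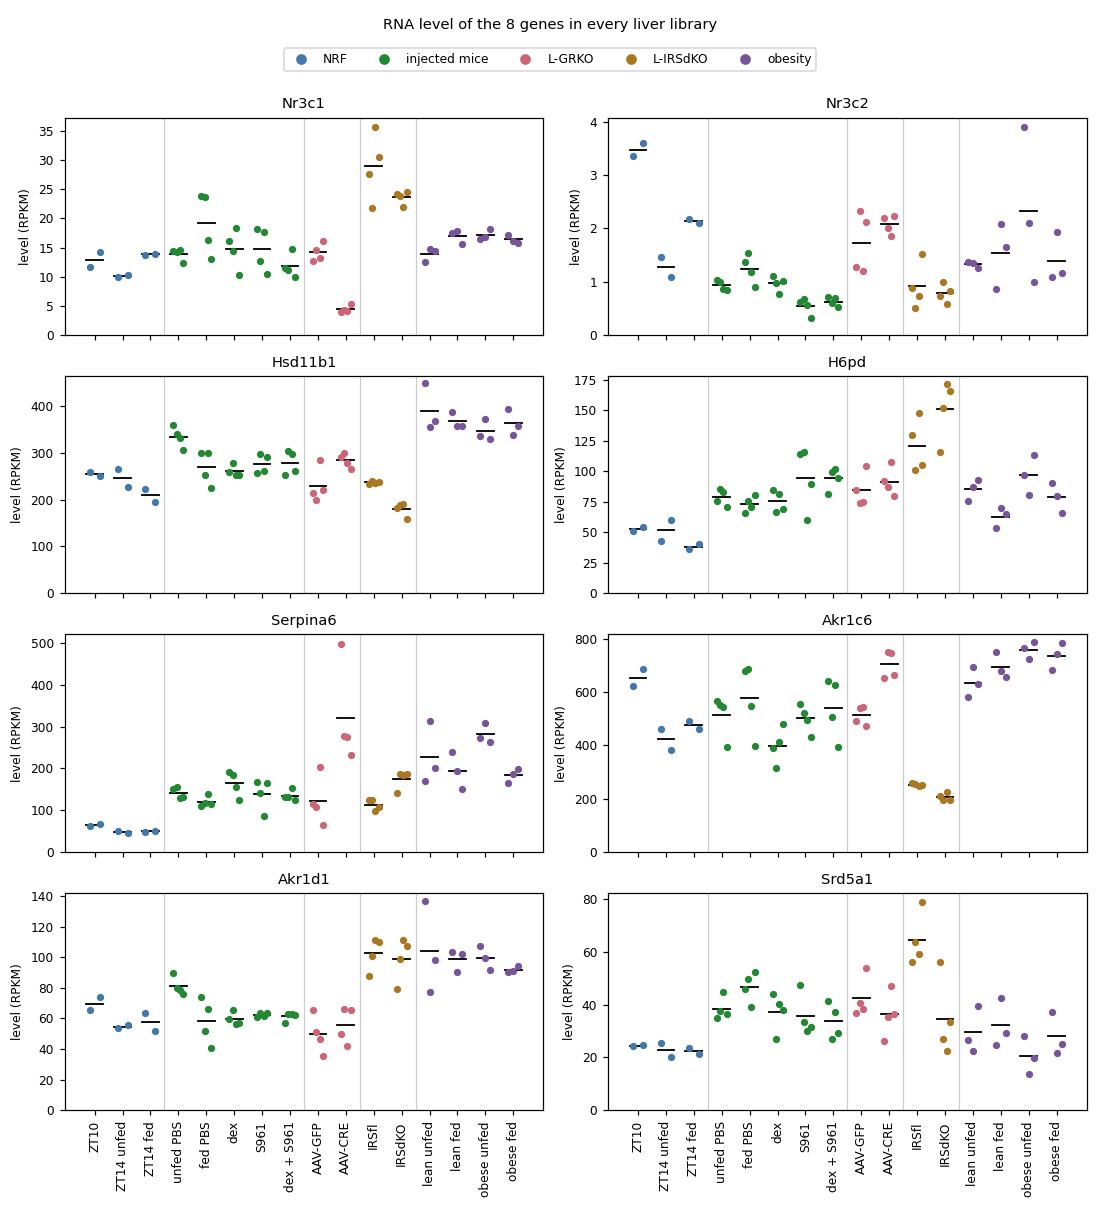
Levels of the 8 genes in RPKM (vertical axis, starting at 0) in every library, by group (horizontal axis) and coloured by experiment, with a bar at the mean of the group. Nr3c1 fell to 3.93 to 5.35 RPKM in the L-GRKO livers. Serpina6 was at 231 to 498 RPKM there, against 64.6 to 204 RPKM with GFP, and Nr3c2 stayed under 4 RPKM in every library.

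The plot of levels by group shows that most genes moved within a narrow band, with a few groups standing apart. Each gene was tested with limma on log2(RPKM + 0.5), the scale of every log2 change below, which understates changes of low genes such as Nr3c2, and p-values were adjusted over all genes tested in an experiment by the Benjamini-Hochberg method, with a threshold of 0.05. All 8 genes passed the filter of a mean of 0.5 RPKM in each experiment. Deletion of the insulin receptor substrates changed the most of them, 4 of 8, where 17.4% of all genes tested changed. Deletion of GR changed 3 of 8, Nr3c1 included, where 6.68% of all genes did. Between ZT10 and ZT14-unfed 2 of 8 changed and between ZT10 and ZT14-fed 2 of 8, against 8.99% and 9.34% of all genes, and food at ZT14 changed 1 of 8 in that experiment, against 6.76%. In the injected mice, feeding, S961, and dex with S961 each changed 1 of 8, against 3.13%, 1.89%, and 10.6% of all genes, and dex alone changed 0 of 8, against 3.19%. Feeding changed 1 of 8 in lean mice, against 23.4%, and 0 of 8 in obese mice, against 7.65%. Obese and lean livers differed in 0 of 8 genes when unfed, against 5.22%, and in 0 of 8 when fed, against 0.507%. For the 2 interactions, of diet with feeding and of dex with S961, 0 of 8 passed, against 0.744% and 0% of all genes, and in the latter 513 of 11248 genes had an unadjusted limma p under 0.05. The 3 NRF comparisons share groups, as do those of the obesity experiment, and the comparisons of fed injected mice share the 4 fed mice given PBS, so their values are set side by side without a count of agreement. The median of all genes tested moved by 0.118 between ZT14-unfed and ZT14-fed, by 0.10 between unfed and fed mice given PBS, and by -0.14 with dex and S961, and values within these comparisons are read against those shifts.

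**Figure D2:**
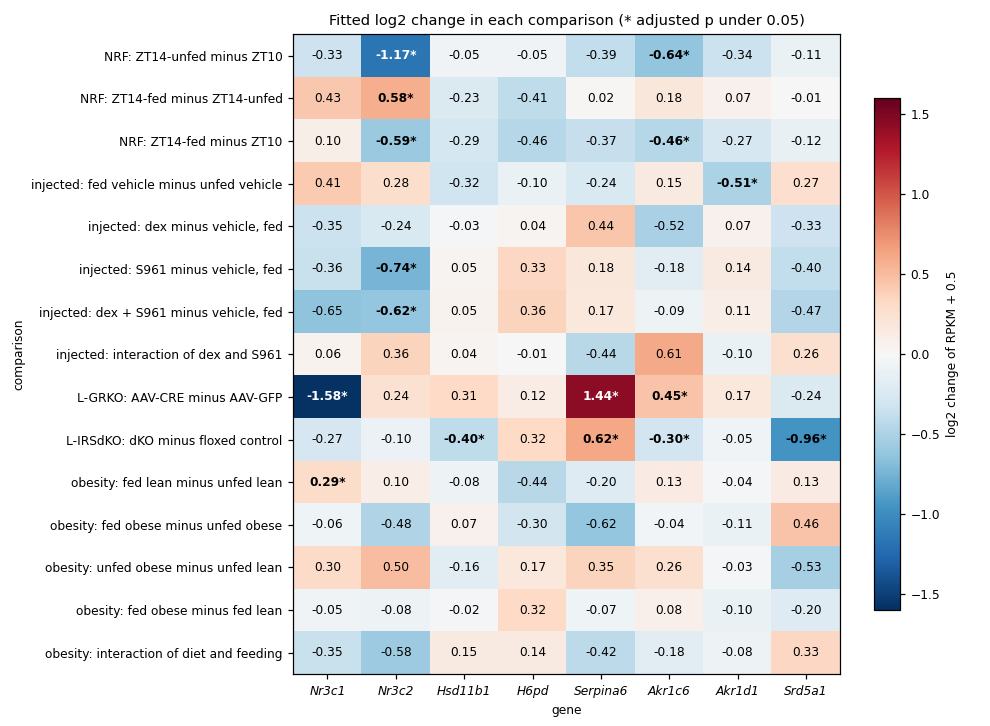
Fitted log2 change (colour, on the log2(RPKM + 0.5) scale) of the 8 genes (columns) in the 15 comparisons (rows), with an asterisk where the limma adjusted p was under 0.05. The 16 asterisks fall on Nr3c1, Nr3c2, Hsd11b1, Serpina6, Akr1c6, Akr1d1, and Srd5a1, with none on H6pd.

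The map of changes holds 16 called values, of which 5 belong to Nr3c2 and 4 to Akr1c6. Under no alternative setting did a called value change sign, whereas 35 of the 104 values that were not called did so in at least 1 setting.

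Nr3c1, the glucocorticoid receptor, fell in the L-GRKO livers and rose with food in lean mice. In the L-GRKO experiment it was at 12.8, 14.5, 13.2, and 16.2 RPKM with GFP and 3.93, 4.23, 4.14, and 5.35 RPKM with CRE. The groups did not overlap, and Nr3c1 was 2.99-fold lower with CRE (log2 change -1.58, SE 0.12, adjusted p = 6.8e-05) in a measure that spans the whole transcript and does not read the deleted exon apart. In lean mice the values were 12.4, 14.7, and 14.4 RPKM unfed and 17.6, 17.9, and 15.6 RPKM fed. Every fed lean liver was above every unfed one, a rise of 1.22-fold (log2 change 0.29, SE 0.08, adjusted p = 0.030), which was 0.20 with adjusted p = 0.13 after median-ratio scaling and lost the call when lean unfed replicate 1 (adjusted p = 0.091), lean fed replicate 1 (0.096), or lean fed replicate 2 (0.11) was left out. The endothelial markers moved with this comparison, summing to 54.4 to 65.6 RPKM in the unfed lean livers and 39.3 to 46.3 RPKM in the fed lean livers over 5 of 5 markers, and their part in the result was not tested.

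In obese mice no such step was measured for Nr3c1. The values were 16.6, 16.8, and 18.1 RPKM unfed and 17.2, 16.2, and 15.9 RPKM fed, with overlapping groups and a log2 change of -0.06 (95% interval -0.25 to 0.12). The difference between the feeding responses of obese and lean mice was -0.35 (SE 0.12, limma adjusted p = 0.21) and did not pass. Unfed obese livers were all above unfed lean livers, by 0.30 on the log2 scale, with adjusted p = 0.065. In the NRF experiment, Nr3c1 was at 11.6 and 14.2 RPKM at ZT10, 9.98 and 10.3 at ZT14-unfed, and 13.7 and 13.9 at ZT14-fed. The fed livers were above the unfed ones, by 0.43 (SE 0.11), but the limma adjusted p was 0.067 and the change did not pass. With 2 libraries on each side, a separation of the groups alone says little.

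Among the injected mice Nr3c1 was spread most widely in the fed mice given PBS, where replicate 4, which carries a later library number than replicates 1 to 3 as does replicate 4 of every group of injected mice, was the lowest. Values were 23.9, 23.7, 16.3, and 12.99 RPKM with PBS, 16.1, 14.5, 18.4, and 10.3 with dex, 18.2, 12.6, 17.7, and 10.5 with S961, and 11.5, 11.2, 14.8, and 9.87 with both. The difference between dex with S961 and PBS was -0.65 (SE 0.21, adjusted p = 0.0541) over all libraries, -0.74 (adjusted p = 0.014) in the first 3 replicates alone, and had adjusted p = 0.0041 with a term for the library series in limma. With a block on replicate numbers the limma adjusted p of this difference was 0.0059. The groups overlapped through fed PBS replicate 4 at 12.99 RPKM and replicate 3 of dex with S961 at 14.8 RPKM. Floxed and L-IRSdKO livers, at 27.7, 21.8, 35.7, and 30.5 and 24.3, 23.9, 21.9, and 24.5 RPKM, overlapped as well (log2 change -0.27, SE 0.14, adjusted p = 0.21).

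Nr3c2, the mineralocorticoid receptor, moved with time, with food, and with S961. In the NRF experiment it was at 3.35 and 3.597 RPKM at ZT10, 1.46 and 1.09 RPKM at ZT14-unfed, and 2.18 and 2.097 RPKM at ZT14-fed. The 3 groups did not overlap, with ZT10 highest and ZT14-unfed lowest. From ZT10 to ZT14 it fell by 2.25-fold without food (log2 change -1.17, SE 0.13, adjusted p = 0.0063) and by less with food (log2 change -0.59, SE 0.13, adjusted p = 0.037), and ZT14-fed livers were higher than ZT14-unfed livers by 0.58 (SE 0.13, adjusted p = 0.0469). The fall without food held with any 1 library left out, whereas the fall with food was lost with any 1 of its 4 libraries left out, and the rise with food was lost after median-ratio scaling (log2 change 0.47, adjusted p = 0.096) and without ZT14-unfed replicate 2, ZT14-fed replicate 1, or ZT14-fed replicate 2 (adjusted p of 0.14 to 0.21). Kupffer cell markers, 7 of 8 of which were in the table, summed to 65.7 to 89.3 RPKM at ZT10, 64.1 to 80.5 RPKM at ZT14-unfed, and 61.0 to 81.6 RPKM at ZT14-fed, and 0 of 7 changed. Of the 5 endothelial markers only Lyve1 was called between ZT10 and ZT14-unfed, higher at ZT14-unfed by 1.46 (limma adjusted p = 0.012). Stab2, Pecam1, Kdr, and Clec4g were at -0.06, -0.07, -0.05, and -0.0007. Of the 7 hepatocyte markers only Hnf4a was called, higher by 0.56 (adjusted p = 0.030), with the others between -0.11 (Ttr) and 0.28 (Apoa1). The part of other cells in the result was not tested.

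In the injected mice Nr3c2 was near 1 RPKM and was lowest after S961. The values were 1.02, 0.992, 0.858, and 0.835 RPKM in unfed mice given PBS, 1.37, 1.53, 1.17, and 0.905 RPKM in fed mice given PBS, and 1.11, 0.981, 0.771, and 1.02 RPKM in fed mice given dex. With S961 they were 0.612, 0.678, 0.562, and 0.313 RPKM, and with dex and S961 0.704, 0.594, 0.687, and 0.516 RPKM. All 8 livers exposed to S961 were below all 4 fed PBS livers, of which the lowest was 0.905 RPKM. Nr3c2 fell by 1.68-fold with S961 (log2 change -0.74, SE 0.14, adjusted p = 0.0099) and by 1.54-fold with dex and S961 (log2 change -0.62, SE 0.14, adjusted p = 0.0086), and in the first 3 replicates alone by 0.73 (adjusted p = 0.017) and 0.67 (adjusted p = 0.0080) on the log2 scale in limma. Dex alone gave -0.24 (95% interval -0.54 to 0.06) and fed against unfed PBS gave 0.28 (-0.02 to 0.58), neither of which passed. Kupffer cell markers moved in the same groups, summing to 99.2 to 120.1 RPKM in fed PBS livers, 55.2 to 87.4 with S961, and 65.7 to 89.1 with dex and S961, with 2 of 7 lower with S961 and 3 of 7 lower with both, and their part in the result was not tested. The call for S961 was lost when only the compared groups were fitted (adjusted p = 0.18) and that for dex with S961 under quantile normalization (adjusted p = 0.11). 

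**Figure D3:**
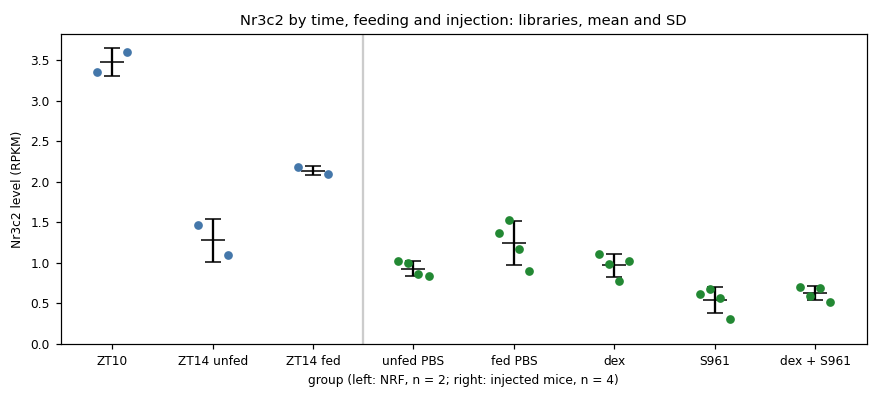
Nr3c2 in RPKM (vertical axis, from 0) in the livers of the NRF experiment and of the injected mice, with each library as a point and the mean and SD of the group. The 2 ZT10 livers, at 3.35 and 3.6 RPKM, sit above the ZT14 livers, and the 8 livers with S961, at 0.313 to 0.704 RPKM, sit below those with PBS or dex alone, at 0.771 to 1.53 RPKM.

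In the plot of Nr3c2, the unfed livers at ZT14 were at 1.09 to 1.46 RPKM in the NRF experiment and 0.835 to 1.02 RPKM in the injected mice, but the former libraries were made by ribosomal depletion and the latter by poly(A) selection, and levels were not tested between them. Without GR, Nr3c2 was at 2.19, 2.01, 1.86, and 2.22 RPKM, inside the range of the GFP livers at 1.28, 2.33, 1.199, and 2.11 RPKM. The obese unfed livers spread from 1.001 to 3.898 RPKM, and no comparison in the obesity or L-IRSdKO experiments passed. Of the exonic bases of Nr3c2, 3.82% are shared with Gm10649 on the other strand, and the strand counted is not given in the sources used here.

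The chaperones and coregulators through which the receptors act changed between ZT10 and ZT14 and, in the obesity experiment, with food. Livers at ZT10 and ZT14-fed differ in both time and food. For these and the other gene lists, single values are log2 changes of genes past the threshold, and medians cover all listed genes tested. Of 22 genes of the GR complex and its coregulators, 8 were higher and 0 lower at ZT14-unfed than at ZT10 (list median 0.07, all genes -0.10), and 8 were higher and 0 lower at ZT14-fed than at ZT10 (0.34 against 0.01). Hsp90aa1, the inducible cytosolic Hsp90, rose by 2.48, and Hspa8, a constitutive Hsp70, by 1.88 between ZT10 and ZT14-fed on the log2 scale. Feeding changed 10 upward and 4 downward in lean mice (0.37 against 0.08) and 9 upward and 0 downward in obese mice (0.35 against 0.02), with Hsp90aa1 up by 1.43 and the coactivator genes Crebbp and Ncoa2 lower at -0.86 and -0.64 in lean mice. Feeding with PBS, dex, and S961 each changed 0 of 22. With dex and S961, 1 rose and 5 fell (-0.32 against -0.14), but after median-ratio scaling 2 rose and 1 fell, so that no direction is given. L-IRSdKO livers had 1 higher and 6 lower (-0.09 against 0.03), and L-GRKO livers differed in Fkbp5 alone, the GR-induced cochaperone of GR, which was lower at -2.64 and was also the 1 gene of the list that was lower in unfed obese livers, at -1.52.

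Other nuclear receptors of steroids and xenobiotics changed in few members. Of 7 listed, 5 were tested, with 1 higher and 1 lower at ZT14-unfed than at ZT10 (list median 0.065, all genes -0.10) and at most 2 called in any comparison. Esr1, the estrogen receptor alpha, was higher at ZT14-unfed and at ZT14-fed than at ZT10, by 0.89 and 1.16, and Nr1i3, the constitutive androstane receptor, was lower at ZT14-unfed, at -0.66. Nr1i2, the pregnane X receptor, was lower in fed than unfed mice given PBS, at -0.49, lower in fed lean mice, at -0.57, and higher with dex and S961 than with PBS, at 0.38. Esr1 was higher by 0.62 in L-GRKO livers, a call that was lost after median-ratio scaling.

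The messages of 10 established GR targets were read in the same libraries. Of these, 5 were called with dex and 7 in L-GRKO livers, and receptor activity itself was not measured in these libraries. With dex 5 of 10 rose and 0 fell (list median 0.76 against -0.10 for all genes), with Mt2, a metallothionein, up by 2.10, Sgk1, a kinase, by 1.92, and Dusp1, a phosphatase, by 1.67, and with dex and S961 6 of 10 rose and 0 fell (0.64 against -0.14). Of the 5 endothelial markers, Kdr and Clec4g were lower with dex, at -0.82 and -0.47. The others were not called, with Stab2 at -0.56, Pecam1 at -0.40, and Lyve1 in the other direction at 0.63 (limma adjusted p = 0.083). Of the 7 Kupffer cell markers only Cd5l was called with dex, lower at -0.74, with the others between -0.62 (Vsig4) and 0.04 (Marco). In L-GRKO livers 0 rose and 7 fell (-1.13 against 0.08), led by Zbtb16, a zinc finger factor, at -3.46, Fkbp5 at -2.64, and Tsc22d3, the leucine zipper GILZ, at -1.81. Feeding lowered 4 of 10 in the NRF experiment (-1.2 against 0.12), 3 in mice given PBS (-0.48 against 0.10), 9 in lean mice (-1.42 against 0.08), and 1 in obese mice (0.04 against 0.02). Unfed obese livers had 6 of 10 lower than unfed lean livers (-1.34 against 0.07). Endothelial markers summed to 30.9 to 39.3 RPKM in the unfed obese and 54.4 to 65.6 RPKM in the unfed lean livers, with 4 of 5 lower. Hnf4a was lower at -0.48, the only one of the 7 hepatocyte markers called there. The part of other cells in these counts was not tested. In the same libraries, the change of the Nr3c1 message was -0.35 with dex (adjusted p = 0.40) and 0.30 between unfed obese and unfed lean livers (adjusted p = 0.065) by limma. None of these list directions turned under median-ratio scaling or quantile normalization. Fkbp5, Tsc22d3, and Tat were the targets called at ZT14-unfed against ZT10, higher by 1.19, 1.12, and 1.38, and no target was called with S961. Sgk1 was the only target called in L-IRSdKO livers, higher by 1.91 although both genotypes had received dex. It was not called in L-GRKO livers, at 0.08.

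Hsd11b1, which regenerates active hormone inside hepatocytes, was among the most abundant messages, ranked 151 to 222 of 24308 symbols depending on the experiment, and fell in L-IRSdKO livers. It was at 234, 240.4, 236, and 238 RPKM in the floxed livers and 181, 189, 191, and 159 RPKM in the L-IRSdKO livers. The floxed livers were tightly grouped and all L-IRSdKO livers were below them (237 ± 2.76 against 179.9 ± 14.8 RPKM, mean ± SD, n = 4 each, log2 change -0.40, SE 0.07, adjusted p = 0.0066 by limma). The call held with any 1 library left out and under every setting tried at the 0.05 threshold. Markers of other cells moved between these genotypes, with Kupffer cell markers summing to 199 to 354 RPKM in floxed and 340.1 to 416 RPKM in L-IRSdKO livers over 7 of 8 markers, stellate markers to 117 to 142 and 148 to 165 RPKM over 5 of 5, and erythroid markers to 85.9 to 148 and 58.7 to 85.9 RPKM over 3 of 3. Of the erythroid markers only Alas2 was called, at -2.30, whereas Hbb-b1 and Hba-a1 were at 0.01 and 0.18. Among endothelial markers Stab2, Pecam1, and Lyve1 were higher, by 0.48, 0.65, and 1.47, and Kdr and Clec4g were not called, at 0.37 and -0.13. The part of other cells in this result and in the other results on L-IRSdKO livers was not tested. The hepatocyte markers summed to 2697 to 3310 RPKM in the 2 genotypes together. Of these 7 markers only Ttr was called, lower in L-IRSdKO livers at -0.45 (limma adjusted p = 0.018), with the others between -0.21 (Alb) and 0.08 (Fgb).

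In the injected mice Hsd11b1 separated unfed from fed livers without passing the threshold in the main fit. The values were 359.8, 341, 331, and 305 RPKM in unfed and 300.4, 253, 299, and 224 RPKM in fed mice given PBS, and the groups did not overlap. The log2 change with food was -0.32, SE 0.10, adjusted p = 0.090, which did not pass, and was -0.43 (adjusted p = 0.043) after median-ratio scaling and -0.28 (adjusted p = 0.097) in the first 3 replicates alone. With a block on replicate numbers the limma adjusted p for food was 0.044. Fed mice given dex, S961, or both ranged over 253 to 278, 258 to 298, and 252 to 304 RPKM, each overlapping with PBS. In L-GRKO livers it was at 292, 299.6, 277, and 266 RPKM against 215, 198, 285, and 221 RPKM with GFP, where GFP replicate 3 lay inside the range of the CRE livers and the other 3 below it. The log2 change was 0.31, SE 0.12, adjusted p = 0.15, and without that library the limma adjusted p was 0.027. In the NRF and obesity experiments, where levels ran from 196 RPKM in a ZT14-fed liver to 449 RPKM in an unfed lean liver, no comparison of Hsd11b1 passed.

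H6pd, which supplies Hsd11b1 with NADPH, was not called in any of the 15 comparisons. In lean mice it was at 75.7, 87.3, and 93.2 RPKM in unfed and 53.9, 69.9, and 65.1 RPKM in fed lean livers, where every fed liver was below every unfed one (log2 change -0.44, SE 0.15, adjusted p = 0.059). After median-ratio scaling the same difference was -0.53 with adjusted p = 0.034. In the NRF experiment it was at 51.5 and 54.1 RPKM at ZT10, 43.1 and 60.1 at ZT14-unfed, and 36.3 and 40.2 at ZT14-fed, with the fed livers lowest (log2 change against unfed -0.41, SE 0.15, adjusted p = 0.14). L-IRSdKO livers, at 116, 152, 171, and 166 RPKM, and floxed livers, at 129.8, 101, 148, and 105 RPKM, overlapped through L-IRSdKO replicate 1 alone among the former (log2 change 0.32, SE 0.15, adjusted p = 0.18), and without it the limma adjusted p was 0.040.

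The enzymes that supply NADPH or compete for glucose 6-phosphate in and around the ER changed mainly through G6pc, the catalytic subunit of glucose 6-phosphatase, which uses the same ER substrate as H6pd. Of 10 genes, 2 were higher and 0 lower at ZT14-unfed than at ZT10 (list median 0.00, all genes -0.10), namely G6pc by 2.54 and Por, the cytochrome P450 reductase, by 0.69. G6pc was the 1 of 10 that changed with food in the NRF experiment, at -3.02, in fed mice given PBS, at -1.6, with S961, at 1.8, and with dex and S961, at 1.1, although the last call was lost under quantile normalization. In lean mice 1 of 10 was higher and 2 were lower with food, with G6pc at -2.09, Por at -0.73, and G6pc3, the ubiquitous isoform, at 0.59. In L-GRKO livers Slc37a4, the ER transporter of glucose 6-phosphate, was lower at -0.87, Por lower at -0.61, and Me1, malic enzyme, higher by 0.65. In L-IRSdKO livers G6pc was higher by 0.98, Por higher by 0.25, and Cyb5r3, a cytochrome b5 reductase, lower at -0.34. H6pd itself, by comparison, changed by -0.05 at ZT14-unfed against ZT10 (adjusted p = 0.87) and by 0.33 with S961 (adjusted p = 0.36).

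Serpina6, the hormone carrier, was higher in both deletions. In the L-GRKO experiment it was at 115, 107, 204, and 64.6 RPKM with GFP and 498, 278, 274, and 231 RPKM with CRE. All CRE livers were above all GFP livers, but both groups were widely spread, with GFP replicate 3 at 204 RPKM and CRE replicate 1 at 498 RPKM. The mean was 123 ± 58.4 RPKM with GFP and 320.3 ± 120.2 RPKM with CRE (± SD, n = 4 each), a rise of 2.704-fold (log2 change 1.44, SE 0.32, adjusted p = 0.024, 95% interval 0.73 to 2.14). The call was lost without GFP replicate 2 (adjusted p = 0.080), CRE replicate 1 (0.058), or CRE replicate 2 (0.055), and after median-ratio scaling it was 1.34 with adjusted p = 0.055. Erythroid markers moved in the same direction, summing to 331 to 623 RPKM with CRE and 223 to 289 RPKM with GFP over 3 of 3 markers, and stellate markers summed to 63.4 to 89.4 and 45.7 to 65.1 RPKM over 5 of 5. Hepatocyte markers summed to 32340 to 43940 RPKM with CRE and 30560 to 44270 RPKM with GFP, although Cps1, a urea cycle enzyme, was lower at -0.90 on the log2 scale, and the part of the other cells in the results on L-GRKO livers was not tested.

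Without insulin receptor substrates Serpina6 was also higher. It was at 123, 125, 96.8, and 107 RPKM in floxed and 141, 185, 185, and 185 RPKM in L-IRSdKO livers. The groups did not overlap, and 3 of the 4 L-IRSdKO livers had almost the same level, with replicate 1 lower. Serpina6 was 1.54-fold higher (113 ± 13.5 against 174 ± 22.1 RPKM, mean ± SD, n = 4 each, log2 change 0.62, SE 0.12, adjusted p = 0.010), and the call held with any 1 library left out and under every setting tried at the 0.05 threshold. Fed mice given S961 were at 167, 142, 84.8, and 164 RPKM against 109, 117, 138, and 114 RPKM with PBS, with replicate 3 of S961 below and the other 3 above all PBS livers and a log2 change of 0.18 (95% interval -0.19 to 0.55).

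Dex did not move Serpina6 past the threshold. The values with dex were 191, 185, 155, and 124 RPKM, of which 3 were above all fed PBS livers and replicate 4 was within their range (log2 change 0.44, SE 0.18, adjusted p = 0.19). In the NRF experiment Serpina6 was at 60.8 and 67 RPKM at ZT10, 51.03 and 46.1 at ZT14-unfed, and 48.3 and 49.96 at ZT14-fed. All ZT14 livers were below both ZT10 livers, with log2 changes of -0.39 (adjusted p = 0.0504) and -0.37 (adjusted p = 0.056) by limma, neither of which passed. In obese mice the livers were at 273, 309, and 262 RPKM unfed and 164, 186, and 198 RPKM fed, all fed below all unfed (log2 change -0.62, SE 0.21, adjusted p = 0.0999). Lean livers overlapped, at 169.9, 314, and 200.1 and 239.6, 193, and 150.4 RPKM, and the difference between the feeding responses was -0.42 (adjusted p = 0.55).

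**Figure D4:**
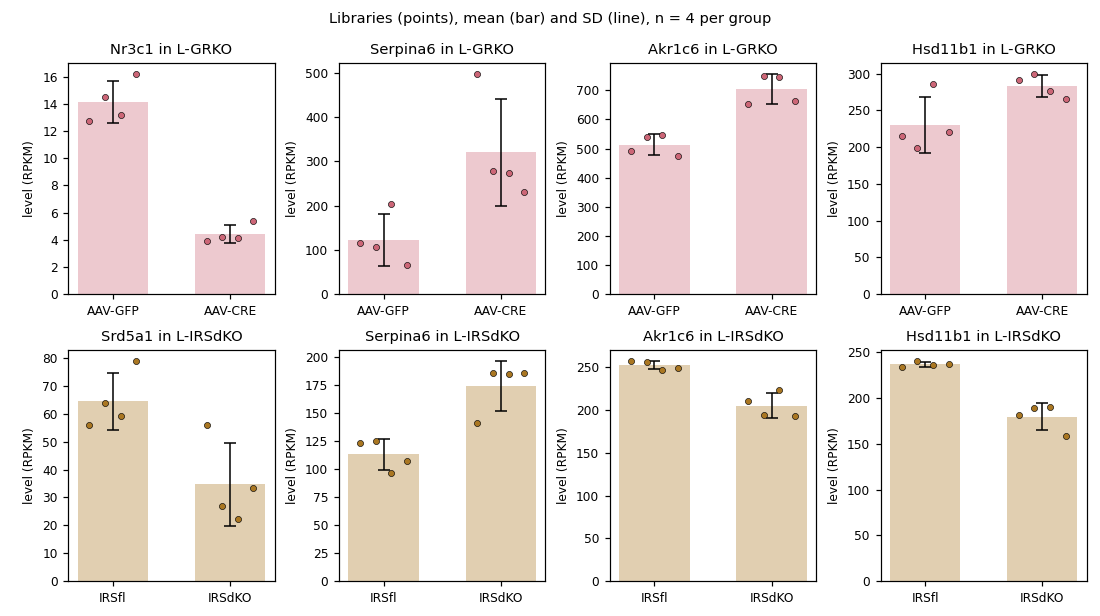
RPKM (vertical axes, from 0) of Nr3c1, Serpina6, Akr1c6, and Hsd11b1 in the L-GRKO experiment (upper row) and of Srd5a1, Serpina6, Akr1c6, and Hsd11b1 in the L-IRSdKO experiment (lower row), with bars at the mean, lines for the SD, and each library as a point. Serpina6 is higher in both deletions, Akr1c6 is higher in L-GRKO livers and lower in L-IRSdKO livers, and L-IRSdKO replicate 1 of Srd5a1, at 56.1 RPKM, sits among the floxed livers.

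As the plot of both deletions shows, Serpina6 was the 1 gene of the 8 that was called higher in each of them, at 1.44 and 0.62 on the log2 scale. The experiments differ in genotype, food, and dex, and the 2 changes were not tested against each other. Of 14 other serpins and plasma carriers tested, 1 was higher and 2 were lower in L-GRKO livers (list median -0.11, all genes 0.08). The one that was higher was Serpina7, thyroxine-binding globulin, a carrier of the same serpin family, by 1.74 (SE 0.33, limma adjusted p = 0.012), and those that were lower were Serpina3k, at -1.42, and Serpina1e, an alpha-1-antitrypsin gene, at -1.16. In L-IRSdKO livers 1 was higher and 4 were lower (-0.23 against 0.03), with Serpina7 again higher, by 1.45 (SE 0.32, limma adjusted p = 0.017), and Serpina12, known as vaspin, and Serpina1e lower at -3.54 and -1.77. Serpina7 was also the 1 carrier that was higher in unfed obese than unfed lean livers, by 1.64, where Serpina6 was 0.35 (adjusted p = 0.35). The Serpina1 and Serpina3 genes are near copies of each other, so that reads may be split among them. Feeding in the NRF experiment, feeding with PBS, dex, and S961 each changed 0 of 14.

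Akr1c6, the most abundant of the 8 messages, was called 4 times. In L-GRKO livers it was at 653, 751, 747, and 665 RPKM against 493, 540.5, 545, and 474 RPKM with GFP. The groups did not overlap, and Akr1c6 was 1.37-fold higher (log2 change 0.45, SE 0.10, adjusted p = 0.020), although median-ratio scaling gave 0.36 with adjusted p = 0.12 and the call was lost without CRE replicate 2 (adjusted p = 0.075) or replicate 3 (0.054). In L-IRSdKO livers it was lower, at 210.4, 194, 223, and 193 RPKM against 257, 256, 247, and 249.8 RPKM in floxed livers. The floxed livers were close to each other and above every L-IRSdKO liver (log2 change -0.30, SE 0.06, adjusted p = 0.012), with the call kept in every setting tried at the 0.05 threshold and with any 1 library left out. 

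Akr1c6 was lower at ZT14 than at ZT10. In the NRF experiment the values were 623 and 686 RPKM at ZT10, 461 and 384 at ZT14-unfed, and 490.3 and 462 at ZT14-fed. All ZT14 livers were below both ZT10 livers, with log2 changes of -0.64 unfed (SE 0.11, adjusted p = 0.020) and -0.46 fed (SE 0.11, adjusted p = 0.0475) by limma, and both calls were lost after median-ratio scaling (-0.51 and -0.48, adjusted p = 0.065 and 0.062). Leaving out either ZT10 library or ZT14-unfed replicate 2 also lost the former (adjusted p of 0.066 to 0.088), and any 1 library the latter. 

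For Akr1c6 and dex, the call depended on whether and how the library series or replicate number was taken into account. The fed livers were at 678, 687, 548, and 398 RPKM with PBS and 390.0, 314, 413, and 479 RPKM with dex, so that dex replicates 1 to 3 were below PBS replicates 1 to 3, whereas dex replicate 4 was above PBS replicate 4. Over all libraries the log2 change was -0.52, SE 0.19, adjusted p = 0.14. In the first 3 replicates alone, a choice made after seeing the data, the log2 change was -0.78 (adjusted p = 0.0028). The limma adjusted p was 0.041 with a term for the library series and 0.052, no call, with a block on replicate numbers. With dex and S961 the values were 640.0, 505, 629, and 393 RPKM, spread over the same range as PBS, and the interaction of dex and S961 was 0.61 (SE 0.26, limma adjusted p = 1.00). The replicate 4 livers of unfed and fed PBS were the lowest of their groups, at 396 and 398 RPKM. In the obesity experiment all unfed obese livers, at 766, 722, and 787 RPKM, were above all unfed lean livers, at 581, 694, and 631 RPKM (log2 change 0.26, SE 0.10, adjusted p = 0.15). Of its 50-base stretches, 1.89% occur also in Akr1c20, a neighboring gene.

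Akr1d1, the beta reductase of steroids and of bile acid precursors, was higher without food in the injected mice. It was at 89.8, 80, 78.8, and 75.9 RPKM in unfed and 74.2, 51.95, 66.3, and 40.6 RPKM in fed mice given PBS. Every unfed liver was above every fed one and the log2 change with food was -0.51, SE 0.13, adjusted p = 0.041. The call held after median-ratio scaling (-0.62, adjusted p = 0.024) but in only 2 of the 8 fits with 1 library left out, with adjusted p from 0.016 to 0.12, and the first 3 replicates alone gave -0.38 (adjusted p = 0.060). Kupffer cell markers summed to 68.1 to 78.0 RPKM in the unfed and 99.2 to 120.1 RPKM in the fed mice, with 2 of 7 higher, and their part in the result was not tested. Fed mice given dex, S961, or both were at 56.7 to 65.8, 61.1 to 63.7, and 56.98 to 63.1 RPKM, inside the range of fed PBS. No other comparison of Akr1d1 passed. L-GRKO and GFP livers overlapped at 42.02 to 65.9 and 35.6 to 65.2 RPKM, as did L-IRSdKO and floxed livers at 79.4 to 111 and 87.8 to 112 RPKM.

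Srd5a1, the alpha reductase, was lower in L-IRSdKO livers, in 3 of 4 of them. It was at 56.01, 63.7, 59.2, and 78.9 RPKM in floxed and 56.1, 26.9, 22.4, and 33.3 RPKM in L-IRSdKO livers. L-IRSdKO replicate 1 was within the range of the floxed livers and the other 3 were at most 33.3 RPKM. The fall was 1.95-fold (log2 change -0.96, SE 0.25, adjusted p = 0.032) and the call was lost in 7 of the 8 fits with 1 library left out, with adjusted p up to 0.092, but without L-IRSdKO replicate 1 it was -1.22 with adjusted p = 0.0011. With dex and S961 the log2 change was -0.47, SE 0.17, adjusted p = 0.083 against PBS, at 41.2, 26.99, 37.3, and 29.2 RPKM against 45.7, 49.5, 38.9, and 52.1 RPKM, with overlap through 1 library of each. A block on replicate numbers gave a limma adjusted p of 0.046 for this difference. Elsewhere Srd5a1 was variable within groups, as in unfed lean livers at 26.5, 22.5, and 39.3 RPKM. Of its exonic bases, 15.77% are shared with Gm17108 on the same strand, so that some reads may belong to either gene.

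The other enzymes of steroid metabolism fell in L-IRSdKO livers more often than they rose. Of 25 tested of 30 listed, 3 were higher and 14 lower (list median -0.40, all genes 0.03). Hsd3b5, a male-biased hepatic steroid reductase, was lower at -4.12 (SE 0.42, limma adjusted p = 0.0013), and Cyp21a1, a steroid hydroxylase known from the adrenal, at -3.69. Cyp17a1, the hydroxylase and lyase of the androgen pathway, was higher by 2.40. In L-GRKO livers Cyp17a1 was lower, at -2.14 (SE 0.23, limma adjusted p = 5.4e-04), as was Cyp7b1, a hydroxylase of oxysterols and steroids, at -1.13, and 3 of 25 were higher, with Hsd17b11, an enzyme of lipid droplets, at 0.59 (0.16 against 0.08), but none of the 3 was called after median-ratio scaling. Hsd3b genes and Akr1c genes have close copies, and reads may be split among them.

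In the other experiments few of these enzymes changed. At ZT14-unfed against ZT10, 0 were higher and 3 of 23 lower (-0.23 against -0.10), led by Hsd3b7, an enzyme of bile acid synthesis, at -1.15, and Hsd3b3 at -0.91. Fed against unfed NRF livers had 3 higher and 0 lower, which turned into 0 and 1 after median-ratio scaling, and the 0 higher and 2 lower with dex and S961 turned into 1 and 0. Dex alone lowered 2 of 24 (-0.18 against -0.10) and with S961 Hsd3b2 was lower at -0.81, and of the former 0 were left after scaling. Unfed obese livers had 3 of 25 higher than unfed lean livers (0.20 against 0.07), with Hsd3b7 at 1.14, Hsd3b2 at 0.69, and Hsd3b3 at 0.68, which became 2 higher and 1 lower after scaling.

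The genes whose levels were most alike across libraries differed from member to member. Likeness was the Pearson correlation of log2(RPKM + 0.5) over the 54 libraries after centring within each experiment, among 10518 genes, and it is a description because the libraries share treatments and depth. Nr3c1 was nearest to Mup20, a major urinary protein gene (r = 0.76), and Nucks1 (0.74), and Nr3c2 to Wdr6 (0.72) and Tbcel (0.72). Hsd11b1 was nearest to Gstt1, a glutathione transferase (0.74), and H6pd to Sun2, a nuclear envelope protein (0.75). Serpina6 was nearest to Abcd2, a peroxisomal transporter (0.76), Akr1c6 to Rgn, regucalcin (0.89), Akr1d1 to Slc10a1, the bile acid uptake transporter (0.65), and Srd5a1 to Cyp4a12b, a fatty acid hydroxylase (0.75). Akr1c6 was thus the member with the closest partner and Akr1d1 the one with the least close. Between members, the values farthest from 0 were -0.59 for Nr3c1 and Serpina6, 0.52 for Hsd11b1 and Akr1d1, and -0.47 for Serpina6 and Srd5a1. The 54 libraries include the L-GRKO livers, in which Nr3c1 was deleted by design and Serpina6 was called higher, so the first value covers that contrast too.

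Binding by GR and FOXO1 and open chromatin were read from lists of 10446 GR peaks, 8546 FOXO1 peaks, and 83592 DNase I hypersensitive sites (DHSs) in mm9, the peaks being those found in both replicates of unfed livers. Within 50 kb of the start sites of the 8 genes lay 33 GR peaks, 25 FOXO1 peaks, and 101 DHSs. GR and FOXO1 peaks were near 7 of the 8 genes, against 33.78% and 35.38% of the 19780 genes with a position and 47.94% and 50.61% of the 10314 of them with a mean of at least 0.5 RPKM. Hsd11b1 (chr1:195047824-195090248, minus strand) had 9 GR peaks, 4 FOXO1 peaks, and 18 DHSs, and Srd5a1 (chr13:69712327-69750320, minus strand) had 7, 5, and 17. H6pd (chr4:149353584-149383132, minus strand) had 6 GR and 4 FOXO1 peaks, and Akr1d1 (chr6:37480173-37518815, plus strand) had 4 of each. Serpina6 (chr12:104884840-104895422, minus strand) had 3 of each, Akr1c6 (chr13:4433552-4456776, plus strand) 2 of each, and Nr3c1 (chr18:39570199-39650955, minus strand) 2 GR and 3 FOXO1 peaks. The exception was Nr3c2 (chr8:79423341-79768911, plus strand), with 6 DHSs but no GR or FOXO1 peak within that distance, although its gene of 345571 bases held 2 GR peaks, 1 FOXO1 peak, and 23 DHSs.

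**Figure D5:**
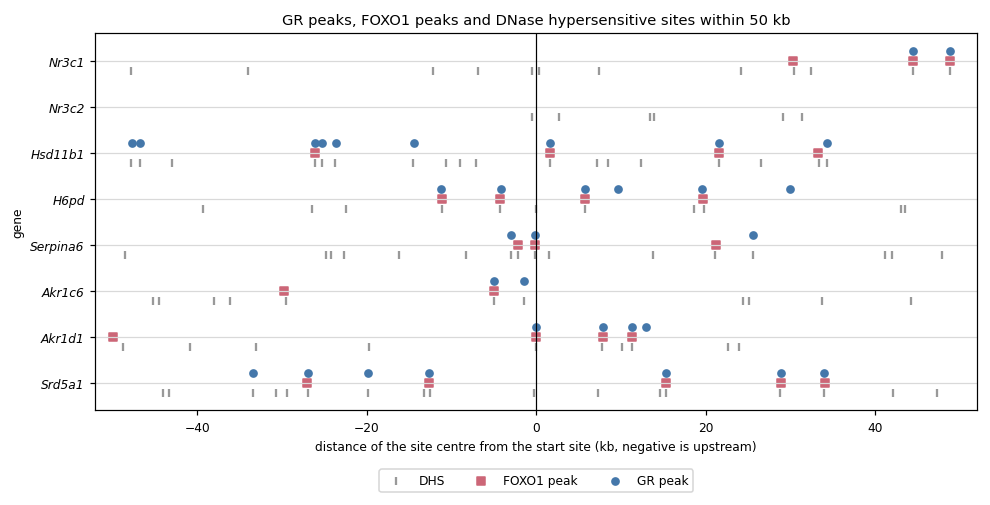
Distance in kb from the start site of each gene (horizontal axis, negative upstream on the strand of the gene) of GR peaks (circles), FOXO1 peaks (squares), and DHSs (ticks) within 50 kb. Serpina6 and Akr1d1 have GR and FOXO1 peaks at the start site, Nr3c1 has its GR peaks at 44.5 and 48.8 kb inside the gene, and Nr3c2 has DHSs only.

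The map of sites shows how near the peaks came to the start sites. At Serpina6 the centres of a GR peak and a FOXO1 peak lay 88 and 84 bases upstream of the start, and at Akr1d1 27 and 65 bases upstream, both in open chromatin and both shown as sequences above. At Hsd11b1 a GR peak in an intron, 1644 bases into the gene, was joined by a FOXO1 peak at 1673 bases. The second near pair there, at 21566 and 21583 bases, was 103 and 120 bases from the start of another transcript, in a stretch that the gene 1600010F14Rik also covers. At Akr1c6 the nearest GR peak was 1379 bases upstream without FOXO1, and the next, at 4961 bases upstream, had FOXO1 at 4964 bases. At H6pd the nearest pair was at 4144 and 4254 bases upstream, and at Srd5a1 at 12608 and 12650 bases upstream, inside Nsun2. Nr3c1 had no GR or FOXO1 peak within 20 kb, and both its GR peaks, in introns 44460 and 48833 bases into the gene, were overlapped by FOXO1 peaks and DHSs.

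Many GR and FOXO1 peaks overlapped each other, both near the 8 genes and over the full lists, and the difference between the 2 was not tested. Of the 33 GR peaks, 19 overlapped a FOXO1 peak by at least 1 base and 29 a DHS, against 48.8% and 81.6% of all GR peaks. Conversely, 20 of the 25 FOXO1 sites met a GR peak and 24 a DHS, against 59.7% and 84.9% of all FOXO1 peaks. A GR element was found in 2 of the 33 GR peaks, 1 near H6pd at 29938 bases and 1 near Hsd11b1 at 46793 bases upstream, and a half-site in 10. A forkhead motif was found in 9 of the 25 FOXO1 peaks and 5 of the 33 GR peaks, among them the stretch upstream of Serpina6. The lists give positions only, so that occupancy could not be compared between conditions, and a site near a gene was not tied to the changes of that gene.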

How the data were processed

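Liver RNA was sequenced by the authors after poly(A) selection or, in the NRF experiment, ribosomal depletion, aligned to mm9 with STAR, and deposited as RPKM per RefSeq ID, a unit that corrects for depth and length but not for a shift in a few abundant genes. The authors called regulated genes with DESeq2 on counts that were not used here, and the counting tool and strand are not given in the sources used here. Peaks of GR and FOXO1 were called by the authors with HOMER against input and kept where both unfed replicates had them, and the deposited peak and DHS lists hold positions without scores.

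Of 35707 RefSeq IDs, 35402 had a symbol in the reference tables and made up 24308 symbols, each represented by the ID of highest mean RPKM, and 0 value columns were left out. Each of the 5 experiments was fitted apart with limma 3.58.1 (R 4.3.3, variance trend, no block) on log2(RPKM + 0.5) for genes whose mean reached 0.5 RPKM, two-sided, with Benjamini-Hochberg adjustment over all genes tested and a threshold of 0.05. The fit was tested on simulated data. Peaks were joined to genes with Python 3.11.15, and bases were read from mm9. Read totals from the study's supplement were not used here, and depth is given only relative to other libraries.

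All 8 members are named in every experiment, and of the gene lists the counts and at most the 3 genes of largest absolute log2 change per list and comparison. The members and lists were chosen with earlier results of these data known. As alternatives, the threshold was set to 0.01, the pseudocount to 0.1 and 1, and the filter to none and 2 RPKM, the table was scaled by median ratios or quantiles, a block on replicate numbers or a library series term was added, the fit was limited to the groups compared, sites were counted at 20 and 100 kb, and libraries were left out one at a time. The dose of S961 and the time of AAV injection read differently in the labels and the methods and are not printed.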

Additional observations from a re-analysis of the deposited data

Results flagged for a closer look

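Among 72 gene and group combinations with 4 libraries, 4 held a library far from the others, and chance alone marks about 1 in 20. In unfed mice given PBS, replicate 4 was low for Nr3c1, at 12.34 RPKM against 14.26 to 14.55 RPKM in the others, and for Akr1c6, at 395.7 RPKM against 545.7 to 565.4 RPKM. In the L-IRSdKO livers, Serpina6 was at 141.1 RPKM in replicate 1 and at 185.0 to 185.4 RPKM in the others. With dex and S961, Akr1d1 was at 56.98 RPKM in replicate 1 and at 62.27 to 63.06 RPKM in the others.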

How the results depend on the processing

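None of the called values of the 8 genes changed sign, whereas some list directions turned with scaling, as given above for each. The limits lie in the counts of the 8 genes past the threshold, given here where they moved by more than 1.5 times. At a threshold of 0.01 the counts were 1 for ZT14-unfed against ZT10, 0 for the other 2 NRF comparisons, 0 for feeding with PBS, 1 for L-GRKO, 1 for L-IRSdKO, and 0 for feeding in lean mice. Without the filter they were 0 in all 3 NRF comparisons, 0 for feeding with PBS, and 1 for L-GRKO, and with a pseudocount of 1 the count for ZT14-fed against ZT14-unfed was 0. A filter of 2 RPKM gave 0 for S961 and 0 for dex with S961, because Nr3c2 was no longer tested. Median-ratio scaling gave 1 for ZT14-unfed against ZT10, 0 for ZT14-fed against ZT14-unfed, 1 for ZT14-fed against ZT10, 2 for feeding with PBS, and 1 for L-GRKO. Quantile normalization gave 0 for ZT14-fed against ZT14-unfed, 1 for ZT14-fed against ZT10, 0 for feeding with PBS, and 0 for dex with S961. With the compared groups alone the counts were 1, 0, and 4 for ZT14-unfed against ZT10, ZT14-fed against ZT14-unfed, and ZT14-fed against ZT10, 0 for feeding with PBS, and 0 for S961. A term for the library series gave 2 for feeding with PBS, 1 for dex, and 2 for dex with S961, and the first series alone, chosen after seeing the data, gave 0, 1, and 2. The cause of these moves was not tested other than for the filter of 2 RPKM. With 1 library left out, the counts ranged over 1 to 4 for L-GRKO, 3 to 5 for L-IRSdKO, 1 to 2 for ZT14-unfed against ZT10, 0 to 2 for ZT14-fed against ZT14-unfed, 0 to 0 for ZT14-fed against ZT10, 0 to 1 for feeding with PBS, 0 to 1 for dex, 1 to 2 for S961, 1 to 2 for dex with S961, 0 to 1 for feeding in lean mice, and 0 to 1 for unfed obese against unfed lean livers, and stayed at 0 elsewhere. Within 20 kb there were 18 GR peaks, 13 FOXO1 peaks, and 44 DHSs near the genes, and within 100 kb 165 DHSs.

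Same-numbered libraries correlated with a mean of 0.0043 in the NRF, 0.045 in the L-GRKO, -0.019 in the L-IRSdKO, and -0.010 in the obesity experiment. In the injected mice the mean was 0.21, with a range of -0.12 to 0.61, against -0.064 for pairs with other numbers. There, 27 of 40 same-numbered pairs were above 0.1, and 11 of the 20 libraries correlated best with their own number. In the injected mice the replicate numbers thus went with part of the variation, which the main fits, without a block, did not remove. A replicate block gave 0 for ZT14-fed against ZT14-unfed, 0 for ZT14-fed against ZT10, 2 for feeding with PBS, 3 for dex with S961, and 0 for feeding in lean mice. Under the block, Hsd11b1 passed for feeding with PBS (limma adjusted p = 0.044), and Nr3c1 (0.0059) and Srd5a1 (0.046) passed for dex with S961. The limma adjusted p under the block was 0.060 and 0.074 for Nr3c2 in ZT14-fed against ZT10 and against ZT14-unfed, 0.074 for Akr1c6 in ZT14-fed against ZT10, 0.054 for Nr3c1 with food in lean mice, and 0.055 for Srd5a1 in L-IRSdKO livers. The relative depth of libraries limits the lowest genes most, and Nr3c2, near 1 RPKM, rests on the fewest reads per base.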
